A study of Mus musculus with 18 samples.

Results

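A set of 9 genes of the cumulus matrix and of ovulation was followed in mouse oocytes, namely Tnfaip6, Ptx3, Has2, Vcan, Ptgs2, Lox, Spp1, Ier3 and Serpine2. They are 9 of the 55291 genes counted in the study, were picked by symbol, and several of them were picked because their RNA was higher in ovulated than in immature oocytes, so the difference between stages is described below without a test. The oocytes came from 5-week-old females whose Vps34 gene (Pik3c3, the class III phosphatidylinositol 3-kinase) carried loxP sites on both alleles. In the conditional knockout (cKO, ZcKO in the labels) a Zp3-Cre transgene, driven by a promoter active in growing oocytes, was added, and the control mice had the same floxed alleles without Cre. Immature but fully grown oocytes, still with a germinal vesicle (GV), were taken 46 h after PMSG, which stimulates follicle growth, and ovulated oocytes at metaphase II (MII) 14 h after hCG, which triggers ovulation. Each library holds 5 oocytes, and there were 3 libraries per genotype and stage, 12 of the 18 samples of the series. The 6 libraries of 2-cell embryos are not analysed here. Column names give the arms as C and T, which were read as control and Cre arm, and every genotype direction below rests on that reading.

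Before ovulation the oocyte sits in a compact coat of cumulus cells. The surge of luteinising hormone, for which hCG stands in, makes granulosa cells release EGF-like peptides, and the cumulus cells answer by making prostaglandins and a soft, hyaluronan-rich matrix that pushes the cells apart and leaves the ovary with the egg. Within that matrix HAS2 spins out the hyaluronan chains, TSG-6 (the product of Tnfaip6) transfers heavy chains of inter-alpha-inhibitor onto them, pentraxin 3 (Ptx3) ties the heavy chains together, and versican (Vcan) is a large proteoglycan that binds hyaluronan. Ptgs2 encodes cyclooxygenase 2, the inducible enzyme of prostaglandin synthesis. Lox encodes lysyl oxidase, which cross-links collagen and elastin. Spp1 encodes osteopontin, a secreted ligand of integrins, Ier3 is an immediate early response gene, and Serpine2 encodes protease nexin 1, an inhibitor of thrombin and plasminogen activators. In follicles these genes are known mainly as genes of the somatic cells.

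Upstream sequence is shown for Ptgs2 and Ptx3, because these members, both well known targets of the ovulatory surge, had almost no counts at GV and clear counts at MII, and because their windows share a motif. The 250 bases before the RefSeq start (GRCm38.p6) are given 5′ to 3′ on the gene's own strand, the plus strand for both, and capitals mark matches to TTGNGNAA, a C/EBP-like motif that was searched on both strands. The windows are chr1:150099781-150100030 for Ptgs2 and chr3:66219637-66219886 for Ptx3.
Ptgs2: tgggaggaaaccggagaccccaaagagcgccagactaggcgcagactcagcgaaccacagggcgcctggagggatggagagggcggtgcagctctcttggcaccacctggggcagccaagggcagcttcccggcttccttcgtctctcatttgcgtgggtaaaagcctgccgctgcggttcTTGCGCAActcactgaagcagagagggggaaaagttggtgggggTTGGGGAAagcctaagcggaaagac
Ptx3: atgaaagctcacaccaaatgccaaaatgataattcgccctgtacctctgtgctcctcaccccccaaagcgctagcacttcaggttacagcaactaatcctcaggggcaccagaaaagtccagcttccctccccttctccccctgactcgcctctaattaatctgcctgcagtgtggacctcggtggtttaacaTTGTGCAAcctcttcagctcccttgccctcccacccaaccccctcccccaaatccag
In the Ptgs2 window the matches lie 69 to 62 and 25 to 18 bases before the start, and in Ptx3 57 to 50 bases before it. In Tnfaip6 (chr2:52037863-52038112, plus strand) the match lies 108 to 101 bases before the RefSeq start, and 1 match to TGANTCA, the AP-1 motif, 142 to 136 bases before it. GENCODE M21 places the start of Tnfaip6 further upstream, so that 104 bases of that window, with part of the TTGNGNAA match, lie inside its gene model, and the sequence is not printed. The search covered 8 windows of 7 of the members, and Has2 and Lox were not searched. Of the 8 windows, 4 hold TTGNGNAA, against 11.7% of all 32851 windows of this length. The motif was chosen after the sequences had been seen. A second start of Spp1 has the remaining match, in a window that lies wholly inside the M21 gene model, as does that of Serpine2, and 29 bases of the Ier3 window lie inside its model. The other motifs searched were found in no window (TGACG, part of a CRE, in 17.8% of all windows) or in 1 (TGANTCA in 6.75% and TATAAA in 12.4% of all windows). These matches are letters in a window, and binding was not measured.

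In the GENCODE M21 annotation of the same build, all 9 are protein-coding genes. The matrix genes are Tnfaip6 on chromosome 2 (52038009 to 52056686, plus strand), Ptx3 on chromosome 3 (66219910 to 66225805, plus), Has2 on chromosome 15 (56665627 to 56694539, minus) and Vcan on chromosome 13 (89655312 to 89742509, minus). Ptgs2 lies on chromosome 1 (150100031 to 150108227, plus), Lox on chromosome 18 (52516067 to 52529867, minus) and Spp1 on chromosome 5 (104435118 to 104441050, plus). Ier3 lies on chromosome 17 (35821684 to 35822923, plus) and Serpine2 on chromosome 1 (79794197 to 79861180, minus). Reads were counted over whole genes, so exons and isoforms are not told apart.

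Gene totals ran from 2609783 to 4696626 counts per library, and values are gene counts scaled to the gene total of the library (CPM) unless stated. The ratio of gene counts to ERCC spike-in counts ran from 4.35 (control replicate 1) to 13.1 (cKO replicate 1) at GV. At MII it ran from 1.51 to 2.42, and values set against spike-ins carry this spread between libraries. Oocyte markers (10 genes such as Zp3, Gdf9 and Mos) summed to 32439 to 46629 CPM at GV and 17054 to 21188 CPM at MII. The targeted gene Pik3c3 stood at 25.8 to 35.5 CPM in control and 1.56 to 2.67 CPM in cKO GV libraries, and at 10.6 to 21.4 CPM in control and 2.42 to 5.36 CPM in cKO MII libraries. A library of 5 oocytes is a bulk sample, so fewer attached cells and less RNA per cell cannot be told apart. The summed CPM of 22 cumulus and granulosa markers, none of them one of the 9 genes, was 87.1 to 144 at GV and 166 to 314.5 in 5 of the MII libraries, but 723 in cKO MII replicate 1. That library was also the highest of the 6 MII libraries for 7 of the 8 members tested at MII, against 20.4% of all genes tested. It was the highest for the untested Has2 too, so values are given with and without it where it matters.

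The matrix genes came first. Tnfaip6 had no count in any of the 6 GV libraries. At MII it stood at 31.1, 90.6 and 75.2 CPM in control replicates 1 to 3 and at 194, 42.1 and 16.8 CPM in cKO replicates 1 to 3. Every MII library was thus above every GV library, and the highest and the lowest MII library were both cKO. Set against a floor of 3 counts summed over the group, Tnfaip6 was at least 247-fold higher at MII than at GV in control and at least 261-fold higher in cKO. Set against the ERCC spike-in counts in place of gene counts, these bounds were 82.1 and 60.3.

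Ptx3 was likewise at 0 in all 6 GV libraries. It reached 8.45, 17.2 and 4.89 CPM in the control and 43.3, 1.51 and 4.99 CPM in the cKO libraries at MII. The value of 1.51 CPM is 5 counts, and cKO MII replicate 1 alone, with 113 counts, held most of the cKO reads. At MII Ptx3 was at least 37.9-fold higher in control and at least 49.7-fold higher in cKO than the GV floor (12.6 and 11.5 against spike-ins). Ptx3 overlaps Veph1 on the opposite strand, which had 3 to 21 counts at GV and 4 to 20 at MII, and the strand setting is not given in the sources used here. In the GV libraries, where Veph1 was counted, Ptx3 had none.

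Has2 was barely detected. It had 0, 0 and 1 counts in control and 3, 0 and 1 in cKO at GV, and 2, 1 and 3 in control and 5, 2 and 1 in cKO at MII. The groups of cKO overlapped between stages, and the summed counts gave 6.44-fold more at MII in control (95% interval 0.781 to 296) and 2.26-fold more in cKO (0.605 to 10.2), intervals that cover counting error only and both span 1, and against spike-ins the ratios were 2.14 and 0.522. No difference of Has2 was detectable at this depth, and it passed the filter on low counts in no comparison.

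Vcan was low at GV, with 2.03, 1.58 and 0.21 CPM in control and 1.24, 1.102 and 0 CPM in cKO. At MII it stood at 5.998, 32.3 and 10.3 CPM in control and 95.8, 54.5 and 11.05 CPM in cKO. The genotypes overlapped through cKO replicate 3 and control replicate 2. Versican RNA was 13.8-fold higher at MII in control (7.84 to 26.4) and 65.1-fold higher in cKO (32.7 to 152). Against spike-ins it was 4.58-fold and 15.04-fold higher, outside those intervals.

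Ptgs2, Lox, Spp1 and Ier3 followed the same stage pattern. Ptgs2 had 1 to 3 counts in each GV library and stood at 13.1, 12.4 and 4.07 CPM in control and 59.4, 24.2 and 9.62 CPM in cKO at MII. Its cyclooxygenase transcript was 27.9-fold higher at MII in control (10.6 to 104) and 42.3-fold higher in cKO (20.2 to 106), and against spike-ins 9.26-fold and 9.77-fold. Within cKO, the 3 MII libraries spanned a wider range than the control libraries, and only replicate 3 fell within the control range.

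Lox was at 0 in all GV libraries and at 24.5, 42.0 and 11.9 CPM in control and 75.9, 27.8 and 31.4 CPM in cKO at MII. That is at least 97.7-fold and at least 142-fold above the GV floor (32.4 and 32.9 against spike-ins), with the lowest MII value in control replicate 3. Loxl1, the one other lysyl oxidase gene that passed the filter of the 4 in that family, went the other way, from 4.04 to 8.30 CPM at GV to 0 to 2.14 CPM at MII, and fell in both genotypes (log2 fold change -3.49, adjusted p = 5.8e-04 in control, and -2.52, adjusted p = 0.00615 in cKO, edgeR's quasi-likelihood test, Benjamini-Hochberg over 11607 genes).

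Spp1 had the highest level of the 9 at MII per exon length, while in CPM the median over the MII libraries was higher for Serpine2 (1005 against 880). Spp1 went from 2 to 5 counts per GV library to 892, 1263 and 263 CPM in control and 2292, 869 and 626 CPM in cKO. Control replicate 3 was the lowest MII library, as it was for Lox and Ptgs2. The pooled counts gave 695-fold more osteopontin RNA at MII in control (406 to 1306) and 1497-fold more in cKO (760 to 3469). Against spike-ins the folds were 231 and 346, below those intervals.

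Ier3 had 1, 1 and 2 counts in control and none in cKO at GV, and 11.2, 25.1 and 9.50 CPM in control and 44.1, 15.4 and 9.27 CPM in cKO at MII. It was 42.7-fold higher at MII in control (16.3 to 158) and at least 72.3-fold higher in cKO (14.2 and at least 16.7 against spike-ins). The ranges of the genotypes at MII overlapped almost fully apart from cKO replicate 1.

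Serpine2 differed from the other 8 in being abundant already at GV, with 386, 319.5 and 421 CPM in control and 269, 349 and 498 CPM in cKO. At MII it stood at 1354, 1008 and 1002 CPM in control and 1099.7, 968 and 797 CPM in cKO. The share of gene counts was 2.97-fold higher at MII in control (2.87 to 3.08) and 2.59-fold higher in cKO (2.49 to 2.69). This difference depended on the scale: with counts set against the ERCC spike-ins, Serpine2 was at log2 -0.06 (MII against GV) in control and -0.73 in cKO, while the TMM-scaled fits gave 1.74 and 1.51. The spike-in scale moved the median of all genes to -1.72 in control and -2.37 in cKO, and the 7 other members with an estimate stayed higher at MII on it.

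Counted over the whole set, all 3 MII libraries lay above all 3 GV libraries for 9 of 9 genes in control and for 8 of 9 in cKO, Has2 being the exception. The same was true of 28.9% and 27.6% of the genes tested. As the choice of members used this contrast, nothing is read from those counts.

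**Figure D1:**
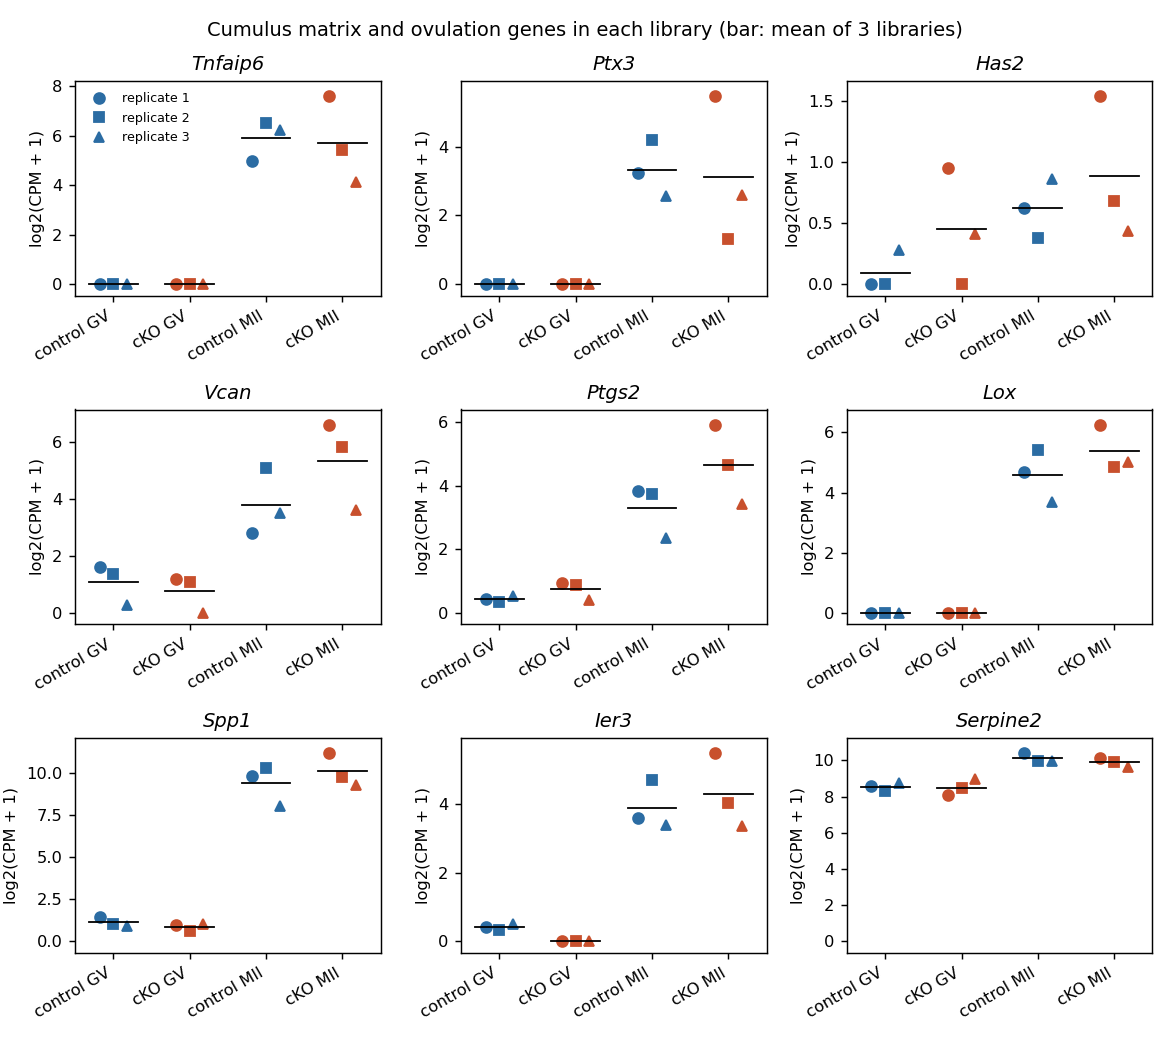
Values of the 9 genes in each library, as log2(CPM + 1), by genotype and stage. Points are libraries (shape gives the replicate number), bars are means of 3 libraries, and the vertical scale differs between panels. Tnfaip6, Ptx3 and Lox lie at 0 in all GV libraries, Serpine2 is high at both stages, and cKO MII replicate 1 is the highest MII point for every gene except Serpine2.

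Per exon length the order at MII was led by Spp1, with a median over the 6 MII libraries of 534 RPKM (CPM divided by exon length in kilobases). Serpine2 followed at 121, Tnfaip6 at 34.3, Ier3 at 11.8, Lox at 6.20, Ptgs2 at 2.78, Ptx3 at 2.51, Vcan at 1.499 and Has2 at 0.136 RPKM. The ranges of every pair of neighbours in this order overlapped across libraries. Within a library, however, each gene exceeded the next in 6 of 6 libraries, except Ptgs2 over Ptx3 in 2 of 6 and Ptx3 over Vcan in 5 of 6.

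The question whether VPS34 loss in the oocyte changed these genes was tested at each stage, a comparison that the choice of members did not use. At GV only Serpine2 passed the filter on low counts. It did not differ beyond the spread of the libraries (375 ± 51.5 CPM in control, 372 ± 116 in cKO, SD, n = 3 each, log2 fold change -0.07, SE 0.21, adjusted p = 0.9999, edgeR), against 0.0825% of 10911 genes called at GV (2.2% at an unadjusted p under 0.05). DESeq2 gave an adjusted p for 3 of the 9 genes at GV and called 0, against 0.0887% of the 13522 genes with an adjusted p.

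At MII 8 of the 9 genes were tested, and edgeR called 0 of them, as it called 0.0% of all 9677 genes tested. At an unadjusted p under 0.05 it gave 1 of the 8, Ptgs2, against 9.01% of all genes. DESeq2 also called 0 of the 8 for which it gave an adjusted p, against 0.0467% of the 8567 genes with one, and 1 of the 9 had an unadjusted p under 0.05, against 3.45% of genes. The median log2 fold change of the 8 was 0.62, against 0.02 over all genes tested, and 7 of 8 were positive, that is higher in cKO. Such a shift was not particular to the members. The 11 cumulus and granulosa markers tested at MII had a median of 0.74, with 9 of 11 positive and 0 called. All 3 cKO libraries lay above all 3 control libraries for 0 of the 8 (8.19% of all genes) and below them for 0 (7.57%).

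The largest differences were those of Vcan and Ptgs2. Vcan averaged 16.2 ± 14.1 CPM in control and 53.8 ± 42.4 in cKO (log2 fold change 1.71, SE 0.81, adjusted p = 0.560, edgeR). Ptgs2 averaged 9.85 ± 5.01 CPM in control and 31.1 ± 25.6 in cKO (1.60, SE 0.65, adjusted p = 0.546, edgeR, unadjusted p = 0.0384). For both, 2 of the 3 cKO libraries lay above every control library.

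For each of the 8 genes the larger of the 2 SDs exceeded the difference of the means. Tnfaip6 averaged 65.6 ± 30.9 CPM in control and 84.4 ± 96.0 in cKO (0.33, SE 0.81). Spp1 averaged 806 ± 506 and 1262 ± 899.9 CPM (0.60, SE 0.65). Lox stood at a log2 fold change of 0.75 (SE 0.50), Ptx3 at 0.65 (SE 1.05) and Ier3 at 0.55 (SE 0.56), and Serpine2 was the only negative value, at -0.28 (SE 0.19) with 1121 ± 201 CPM in control and 955 ± 152 in cKO. Adjusted p for these 6 genes ran from 0.639 to 0.907.

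One library carried much of the positive direction. Without cKO MII replicate 1, the log2 fold change became -1.16 for Tnfaip6, -1.67 for Ptx3, -0.14 for Spp1 and -0.30 for Ier3. Ptgs2 went to 0.75, Vcan to 1.02 and Lox to 0.17, and Serpine2 to -0.38. Again 0 of the 8 were called.

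**Figure D2:**
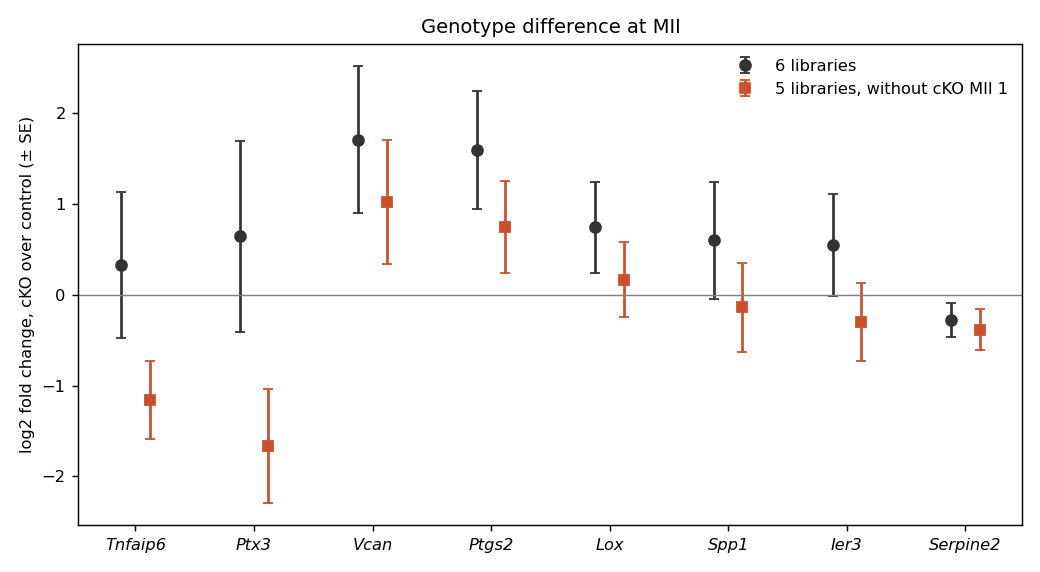
Log2 fold change of cKO over control at MII for the 8 tested genes, from edgeR, with bars of 1 standard error. Black circles use all 6 MII libraries and orange squares leave out cKO MII replicate 1. Tnfaip6, Ptx3, Spp1 and Ier3 change sign without that library, from 0.33, 0.65, 0.60 and 0.55 to -1.16, -1.67, -0.14 and -0.30.

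Whether the genotype effect differed between stages was tested with an interaction term in 1 fit of the 12 libraries. It called 0 of the 8 members in that fit, against 0.00862% of 11607 genes, and 0 had an unadjusted p under 0.05 (5.24% of genes). DESeq2 called 0 of 9 (0.0112% of genes), with 1 at an unadjusted p under 0.05 (2.41% of genes). For Tnfaip6, Ptx3 and Lox, at 0 in every GV library, no effect at GV can be estimated and the interaction is not informative. Serpine2, the only member with more than 6 counts in a GV library, gave an interaction of -0.23 (SE 0.30). With few GV counts, Vcan gave 2.25 (SE 1.67), Spp1 1.10 (SE 1.57) and Ptgs2 0.67 (SE 1.58). Ier3, at 0 in the cKO GV libraries, gave 3.88 (SE 2.02, unadjusted p = 0.0725, adjusted p = 0.875, edgeR), a value that depends on how the fit treats 0 counts.

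The libraries of a stage were then compared among themselves, to see whether the genes rose and fell together. Between the highest and the lowest of the 6 MII libraries, Ptx3 spanned 28.6-fold, Vcan 15.97-fold, Ptgs2 14.6-fold and Tnfaip6 11.6-fold. Spp1 spanned 8.73-fold, Lox 6.35-fold, Ier3 4.75-fold and Serpine2 1.70-fold. On the CPM + 1 scale, 0.062% of the tested genes had a span as large as that of Ptx3 and 4.82% one as large as that of Ier3, while for Serpine2 it was 61.2%.

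The 7 tested genes other than Serpine2 went up and down together in part. Across the 6 MII libraries the 21 pairs among them had a median Pearson r of 0.72 (range 0.37 to 0.95) on log2(CPM + 1), and 21 of 21 were positive. Over all pairs of tested genes the median was 0.033, and 9.85% of all pairs reached the median of these 21. Lox and Spp1 were the closest pair (0.954), followed by Ptgs2 and Spp1 (0.900). Without cKO MII replicate 1 the median of the 21 pairs was 0.43 (range -0.29 to 0.91), with 16 positive. Lox and Spp1 stayed together at 0.915 without it, while Tnfaip6 and Ptx3 no longer moved with Ptgs2 (-0.23 and -0.26). With group means taken off, within genotype, and cKO MII replicate 1 kept in, the median over the 21 pairs was 0.81. These correlations rest on 6 libraries that share their scaling to the gene total, and no p is given for them.

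Serpine2 was less close to the others. Its 7 pairs had a median Pearson r of 0.23 (range -0.12 to 0.35). By rank their median Spearman's rho was 0.43, against 0.66 for the 21 pairs. With group means taken off, the median r of the 7 pairs was 0.38 (range 0.23 to 0.79), and 7 of 7 were positive. The highest MII library of Serpine2 was control replicate 1, where Vcan was lowest.

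**Figure D3:**
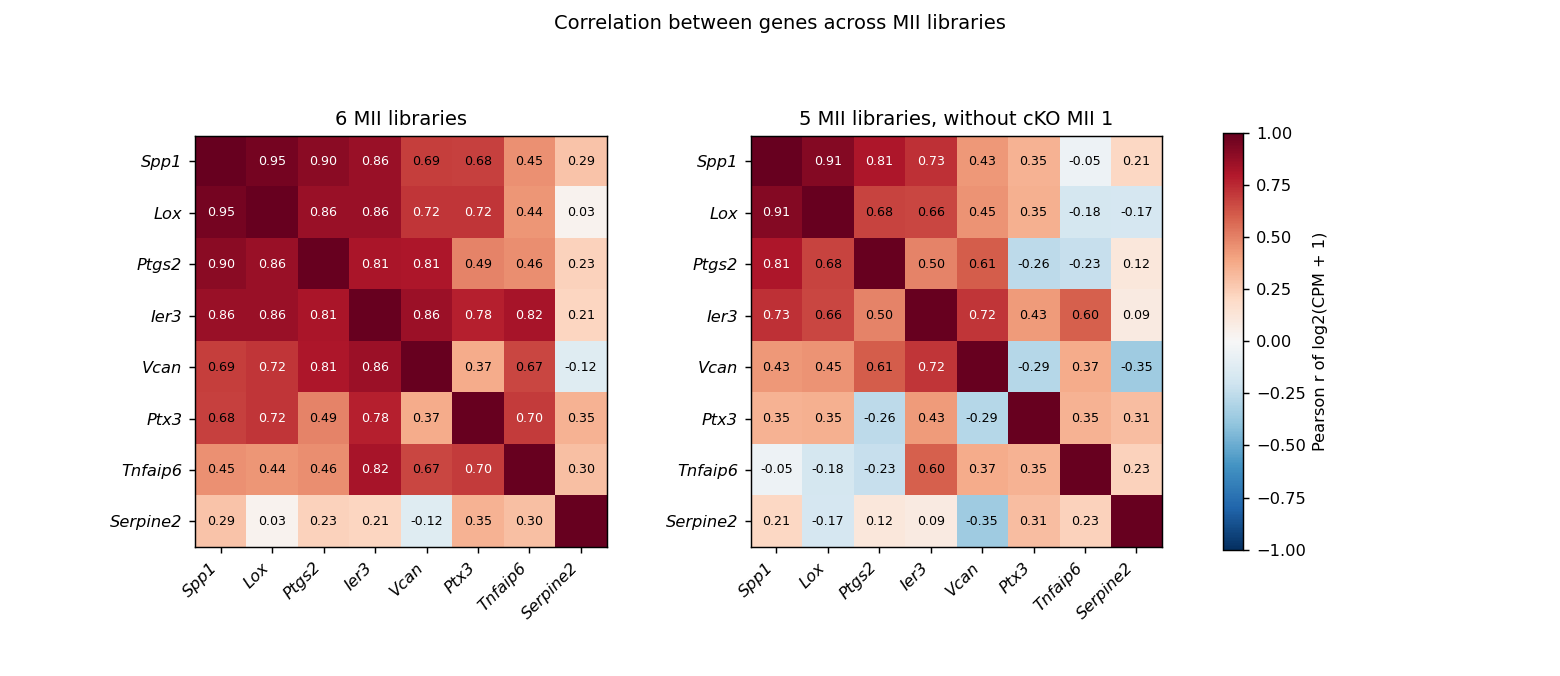
Pearson r between the 8 tested genes on log2(CPM + 1) across the MII libraries, with all 6 on the left and without cKO MII replicate 1 on the right. Red is positive and blue negative, and each cell prints its value. Lox and Spp1 remain close in both panels (0.95 and 0.91), while the pairs of Tnfaip6 with Lox, Spp1 and Ptgs2 turn negative on the right.

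To see whether the 7 genes kept 1 ratio to each other, the makeup of their summed counts was compared between MII libraries (exact Clopper-Pearson intervals at 95%, counting error only). Spp1 made up 90.4%, 85.2% and 69.4% in control MII replicates 1 to 3 and 81.7%, 84.0% and 88.3% in cKO. Tnfaip6 made up 3.15%, 6.11% and 19.9% in control and 6.93%, 4.07% and 2.36% in cKO. The Tnfaip6 share of control replicate 3 (17.8% to 22.1%) lay far outside the intervals of the other 5 libraries, the nearest of which was 6.36% to 7.53%. Ptx3 ranged from 0.146% (0.048% to 0.341%) in cKO replicate 2 to 1.54% (1.27% to 1.85%) in cKO replicate 1. Vcan ranged from 0.608% (0.381% to 0.919%) in control replicate 1 to 5.27% (4.54% to 6.07%) in cKO replicate 2. These shares differed by more than counting error, and how much shares vary between libraries through amplification was not tested.

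The 22 cumulus and granulosa markers gave a readout that did not use the members. Per library their sum at MII was 184, 314.5 and 197 CPM in control and 723, 252 and 166 CPM in cKO, and the sum of the 8 members other than Serpine2 was 987, 1483, 379, 2806, 1035 and 709 CPM in the same order. The libraries with the highest and the second highest marker sum, cKO replicate 1 and control replicate 2, were also the highest and second highest for that sum. The lowest libraries differed, control replicate 3 for the members (379 CPM) and cKO replicate 3 for the markers (166 CPM). Spp1 gave most of the member sum in each library. In cKO MII replicate 1 the marker sum was led by Gja1, the gap junction gene connexin 43 (231 CPM), Fst, follistatin (118 CPM), Cyp19a1, aromatase (76.3 CPM), Inha, inhibin alpha (67.4 CPM), and Grem1, the BMP antagonist gremlin (64.4 CPM). In control replicates 1 and 3 Cyp19a1 was the largest term of the sum (84.2 of 184 and 74.7 of 197 CPM). The same held in cKO replicate 3 (45.6 of 166 CPM). Gja1 was the largest in control replicate 2 (76.4 CPM) and cKO replicate 2 (85.1 CPM). Some markers of the list were near or at 0 at MII. Amh, Wt1 and Slc38a3 had no count in any MII library, and Amhr2, Fshr and Foxl2 did not exceed 1.09 CPM. These genes were low at GV as well, at most 3.69 CPM (Amhr2, control GV replicate 2). Gja1, Fst, Grem1 and Vim were higher at MII than at GV in both genotypes, and Inhbb and Hsd17b1 lower in control. Cyp19a1 and Nr5a2 varied little across MII libraries, from 45.6 to 84.2 and from 12.1 to 15.5 CPM.

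Across the 6 MII libraries the correlation with the marker sum was highest for Ier3 (Pearson r = 0.971, exact permutation p = 0.00417, Spearman's rho = 0.943, exact p = 0.0167). Tnfaip6 (r = 0.869, exact p = 0.0194, rho = 0.943, exact p = 0.0167) and Vcan (r = 0.859, exact p = 0.0139, rho = 0.771, exact p = 0.103) followed. None of the 8 tested members passed after Benjamini-Hochberg adjustment over the 9677 genes tested (adjusted p = 0.325 for Ier3, 0.449 for Tnfaip6 and 0.407 for Vcan), and 0 of all genes did. The smallest p that 6 libraries allow is 0.00139. At an unadjusted p of at most 0.05 there were 3 of 8 members, against 8.61% of all genes.

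For the other members r was 0.815 for Ptgs2, 0.798 for Lox, 0.780 for Spp1, 0.766 for Ptx3 and 0.199 for Serpine2, with exact permutation p from 0.0583 to 0.631 and Spearman's rho from 0.371 to 0.714. The median r of the 8 was 0.806, against 0.141 over all genes tested. Leaving out the 2 libraries farthest from the median marker sum (cKO replicate 1 and control replicate 2) left r at 0.889 for Ier3 and 0.858 for Vcan. It came to 0.543 for Tnfaip6, 0.535 for Ptgs2, 0.177 for Spp1, -0.06 for Lox, -0.83 for Ptx3 and 0.09 for Serpine2, so for Spp1, Lox and Ptx3 the relation rests on those 2 libraries. Without cKO replicate 1 alone the median r of the 8 was 0.499. Values within genotype had group means taken off and kept cKO replicate 1 in. There r was 0.971 for Ier3, 0.953 for Tnfaip6, 0.865 for Vcan, 0.840 for Ptx3, 0.824 for Ptgs2, 0.776 for Lox, 0.751 for Spp1 and 0.444 for Serpine2. At GV, where Serpine2 alone was tested, its r with the marker sum was 0.434 (exact permutation p = 0.392, adjusted p = 0.844, rho = 0.371), and -0.33 without the 2 farthest libraries.

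**Figure D4:**
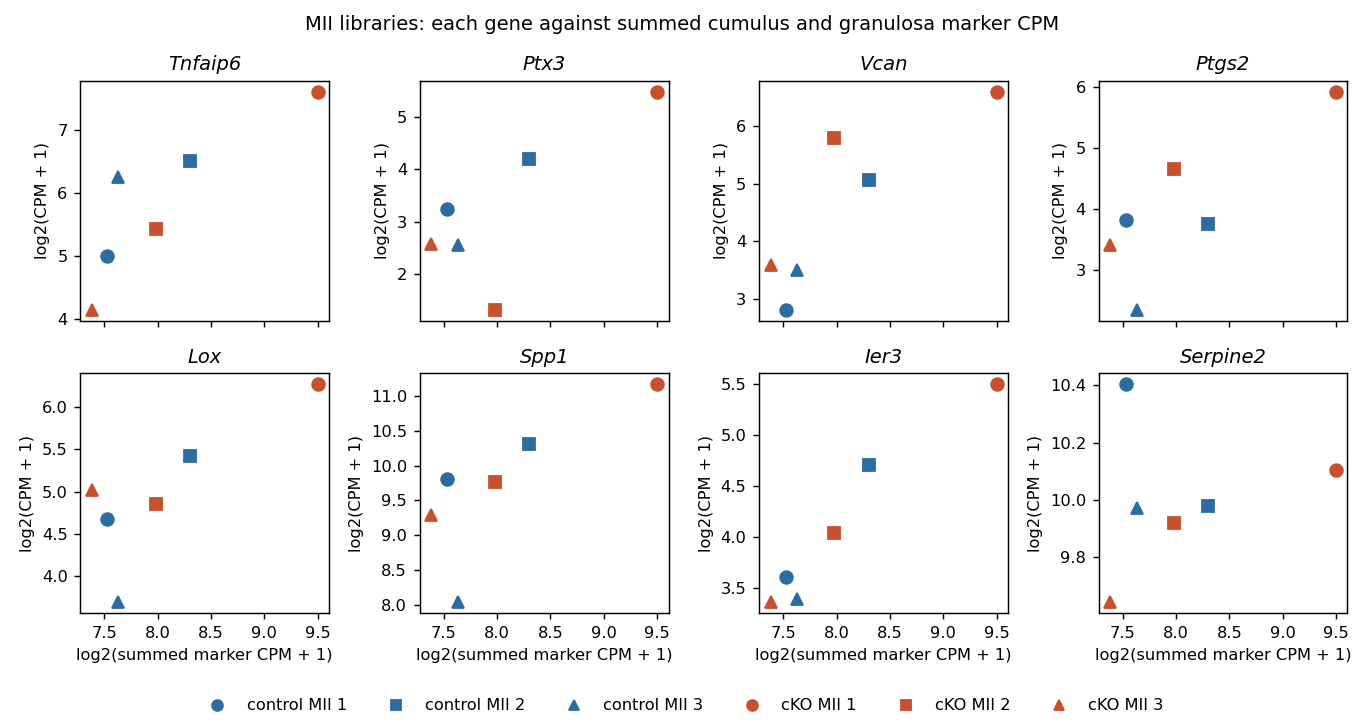
Each tested gene, as log2(CPM + 1), against the summed CPM of 22 cumulus and granulosa markers, as log2(sum + 1), in the 6 MII libraries. Blue points are control and orange points cKO, and shape gives the replicate number. cKO MII replicate 1 lies far to the right in every panel, and Serpine2 shows little relation (r = 0.199).

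Markers of other cell types were summed in the same way. Blood and immune markers summed to 47.9 to 81.0 CPM at GV, mostly C1qb, and 5.43 to 11.4 CPM at MII, and oviduct epithelium markers to 73.3 to 135 CPM at GV and 137 to 155 CPM at MII, mostly Cdh1, which oocytes also express. In cKO MII replicate 1 they stood at 5.75 and 155 CPM, within the range of the other MII libraries or at its edge. The oviduct sum mainly follows Cdh1. Krt8 of that list stood at 9.20 CPM in cKO MII replicate 1, against 0.27 to 1.51 CPM in the other MII libraries. The part of attached cumulus cells in the members' levels was not tested.

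The genes whose pattern was most like the mean of the 9 members over the 12 libraries were Timp1 (Pearson r = 0.992), Piezo2 (0.990), Nupr1 (0.990), Marcks (0.989) and Cald1 (0.988). All 5 share the step between stages, and over the 6 MII libraries alone r was 0.952, 0.881, 0.971, 0.928 and 0.946. Those 6 were among the 12 libraries used to choose the genes, so these values are no separate support. Each of the 5 was highest in cKO MII replicate 1, where Nupr1 stood at 367 CPM against 66.0 to 195 CPM in the other MII libraries, and Marcks at 103 against 13.1 to 35.02 CPM.

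Partners of the members were read from lists of the same pathways. At GV and MII, 0 genes of these lists were called between genotypes. Between stages 30.1% of all genes tested rose and 33.8% fell in control, and 29.5% rose and 34.0% fell in cKO, on the TMM scale. Values for named genes are log2 fold changes of MII over GV, first in control and then in cKO. The spike-in scale lowers these values, so its counts are given after each list, and the genes named below as fallen are lower at MII on both scales.

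Among EGF-like signals, 5 of 14 genes were tested, of which 3 rose and 1 fell in control and 2 rose in cKO (spike-in scale: 1 rose and 2 fell, then 1 and 3). Btc, the ligand betacellulin, rose from 0.071 ± 0.123 CPM to 2.92 ± 2.75 CPM in control (log2 fold change 4.66, adjusted p = 0.00214, edgeR) and by 7.40 in cKO (adjusted p = 1.5e-04), and stayed higher on the spike-in scale (3.26 and 6.70). At GV it had 0, 0 and 1 counts in control and none in cKO, so these values depend on how the fit treats 0 counts. Areg and Ereg, the main ligands of mural granulosa cells, had at most 1.21 CPM in any library. Hbegf, another EGF-like ligand, rose (2.12 and 2.19, then 0.50 and -0.03 on the spike-in scale), and Tnfsf11 rose in control (0.91, and 0.73 in cKO, negative on the spike-in scale). The receptor gene Egfr fell in control (-1.17, adjusted p = 0.00582) and stood at -0.56 in cKO.

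Of the 18 genes of hyaluronan synthesis, binding and turnover, 5 were tested, with 1 risen and 1 fallen in control and 1 fallen in cKO (spike-in scale: 0 and 3, then 0 and 4). Hyal2, a hyaluronidase, fell from 31.7 ± 4.30 to 2.24 ± 1.23 CPM in control (-3.67, adjusted p = 3.3e-07) and also in cKO (-4.17, adjusted p = 1.4e-07). Cemip2 rose in control by 0.89 and stood at -0.80 on the spike-in scale. Has1 had no count in any library, and Has3, the other hyaluronan synthase, stood at 3.07 to 14.6 CPM with no call at either genotype.

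Prostaglandin genes had 6 of 9 tested, with 2 risen and 1 fallen in control and 3 risen and 2 fallen in cKO (spike-in scale: 1 and 4, then 1 and 3). Pla2g4a, the phospholipase that frees arachidonic acid for cyclooxygenase, rose by 3.59 in control (adjusted p = 4.5e-04) and 4.44 in cKO (adjusted p = 7.3e-05), and stayed higher on the spike-in scale (1.91 and 2.16). Ptges3 rose by 1.15 and 1.78 but stood at -0.46 and -0.56 on the spike-in scale, and Ptgis, prostacyclin synthase, fell (-4.78 and -5.44). In cKO alone Ptgds was called as risen (1.62, and 0.03 in control) and Ptges2 as fallen (-1.60, and -1.30 in control), the former negative on the spike-in scale. Ptges, the inducible prostaglandin E synthase, stood at 0.71 to 5.599 CPM with no call.

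Among proteases and inhibitors 5 of 14 were tested, with 3 risen and 1 fallen in each genotype (spike-in scale: 1 and 2, then 2 and 3). Timp1, an inhibitor of metalloproteinases, rose by 5.88 in control (adjusted p = 4.2e-07) and 8.62 in cKO (adjusted p = 7.7e-08), also on the spike-in scale (4.27 and 6.76). With 0, 0 and 1 counts in the cKO GV libraries, the size of its cKO value depends on how the fit treats 0 counts. Ctsl, cathepsin L, rose by 2.10 and 3.85 (0.46 and 1.72 on the spike-in scale). Adamts4 rose by 1.51 and 0.87 but was negative on the spike-in scale, and Mmp2, a gelatinase, fell (-1.55 and -2.07). Plat, tissue plasminogen activator and a target of Serpine2, was not called between stages on the TMM scale (0.26 and -0.36). At MII it stood at 2319 to 4596 CPM in control and 1538 to 1993 CPM in cKO libraries. It was not called between genotypes there (log2 fold change -0.95, adjusted p = 0.530, edgeR). Of all genes tested at MII, 7.57% had all cKO libraries below all control libraries.

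Integrins that bind osteopontin had 5 of 7 tested, and 3 rose in each genotype, Itgav, Itgb1 and Itga9. Their log2 fold changes were 1.30, 1.13 and 1.45 in control and 3.23, 1.17 and 1.21 in cKO, and on the spike-in scale all of these turned negative except that of Itgav in cKO (1.03). No integrin rose on that scale (0 rose and 1 fell in control, 0 and 4 in cKO).

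The matrix list had 9 of 15 tested, with 2 risen and 2 fallen in control and 3 and 2 in cKO (spike-in scale: 0 and 6 in each). Sparc rose by 1.63 and 2.90 (0.01 and 0.66 on the spike-in scale), and Fn1, fibronectin, and Bgn, the proteoglycan biglycan, fell (-1.67 and -1.13, and -2.94 and -2.53). Lamc1 was called as risen in control (0.57, and 0.52 in cKO), and Col4a1 (1.37, and 0.81 in control) and Postn (1.73, and 0.94 in control) in cKO, all negative on the spike-in scale. Immediate early genes had 7 of 14 tested, with 3 risen in control and 2 in cKO (spike-in scale: 0 risen and 2 fallen, then 0 and 5), among them Ier2 at 1.91 and 1.92 (0.15 and -0.39 on the spike-in scale). Btg2 (0.88 and 0.79) was called in both genotypes and Dusp1 in control (1.18, and 0.50 in cKO), both negative on the spike-in scale, while Fos and Egr1 were not called.

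Oocyte factors that act on cumulus cells, with their receptors, had 9 of 9 tested, with 4 risen and 1 fallen in control and 4 and 2 in cKO (spike-in scale: 0 and 6, then 0 and 8). Gdf9 stood at 7902 ± 1650.4 CPM in control GV and 6969 ± 2579 CPM in control MII libraries (-0.02), and fell in cKO from 7866 ± 428 to 3955 ± 921 CPM (-0.86, adjusted p = 0.00819, edgeR). Fgf8 fell (-5.81 and -6.31). Of the receptors and their signal carriers, Bmpr2 (1.27 and 1.86), Bmpr1b (1.17 and 1.10) and Tgfbr1 (1.20 and 1.32) rose in both genotypes, Smad3 in control (0.55, and 0.37 in cKO) and Bmpr1a in cKO (0.59, and 0.0039 in control), all of them negative on the spike-in scale.

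Of the cumulus and granulosa markers themselves 13 of 22 were tested, with 7 risen and 2 fallen in control and 9 risen in cKO (spike-in scale: 2 and 5, then 3 and 4). Vim, vimentin, rose by 4.36 and 6.27 (the latter from 2, 0 and 0 counts in the cKO GV libraries) and Grem1 by 4.19 and 3.36. Both were still higher at MII on the spike-in scale. So were Fst (2.64 and 6.50), Gja1 (2.13 and 4.67), Star (2.39 and 3.14) and Inhba (2.37 and 2.44), which also rose. Cyp19a1 rose by 1.42 and 0.97 and Kitl in cKO by 1.06 (0.88 in control), both negative on the spike-in scale. Cyp11a1 rose in cKO (2.88, or 0.64 on the spike-in scale) and stood at -0.32 in control. Inhbb (-4.00, and -0.82 in cKO) and Hsd17b1 (-1.95, and 1.45 in cKO) fell in control. Oviduct markers had 2 of 8 tested and both rose, Ovgp1 by 3.41 and 2.10 and Cdh1 by 0.81 and 0.67 (0 rose and 1 fell on the spike-in scale). Of the blood and immune markers 2 of 12 were tested and 1, C1qb, fell in both genotypes (-3.40 and -3.69). Oocyte markers had 10 of 10 tested, with 5 fallen in control and 1 risen and 6 fallen in cKO, and all 10 fell on the spike-in scale. On the TMM scale Zp1 (-4.31 and -4.55), Zp2 (-4.54 and -4.04), Zp3 (-4.78 and -4.71), Ooep (-2.96 and -2.85) and Nlrp5 (-1.49 and -0.76) fell in both genotypes, and Oosp1 rose in cKO (0.63).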

How the data were processed

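The table of the authors holds raw read counts, whole numbers per gene symbol, for 55291 genes and 92 ERCC spike-ins. Per the labels' protocols, libraries were made by Smart-seq2 and the KAPA HyperPlus kit. The submitters' processing notes name fastp, HISAT2, featureCounts and mm10 and no versions. Annotation, strand setting and treatment of multi-mapped reads: not given in the sources used here. Columns were matched to samples by name, and 6 columns that match no label were not used. The replicates are described as biological, but no label ties libraries to animals, so p-values measure the spread between these libraries.

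CPM was computed over gene counts without spike-ins, and RPKM from the union of GENCODE M21 exons. Genotype tests used edgeR 4.0.16 (R 4.3.3) with TMM, filterByExpr and a robust quasi-likelihood fit of the 6 libraries of a stage, stage and interaction terms 1 fit of 12 libraries, and Benjamini-Hochberg adjustment with a threshold of 0.05 over all genes tested. Correlations with summed marker CPM used log2(CPM + 1) and exact permutation tests over 6 libraries (scipy 1.17.1). Folds between stages are ratios of summed counts with exact conditional intervals or, where a group had no count, bounds against a floor of 3 counts over the group. The reads have no molecular identifiers, and intervals and floors cover counting error only. The edgeR and correlation steps were tested on simulated data.

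The members and lists were chosen with earlier results of these data known. All 9 members are named. Of each list, genes past the threshold in a stage contrast are named. Areg, Ereg, Has1, Has3, Ptges, Plat, Fos, Egr1 and the granulosa and oviduct markers given by CPM only were added after their values were seen. The 5 genes most alike were ranked by Pearson r with the members' mean log2(CPM + 1). Alternatives were DESeq2 1.42.0, other library sizes, no filter, a replicate block, other pseudocounts, rank correlation and leaving out each library.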

Additional observations from a re-analysis of the deposited data

How the results depend on the processing

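The count of members called by genotype, 0 at GV, 0 at MII and 0 for the interaction, was 0 under every alternative run, of which little can be read: only 1 member was tested at GV, and few genes were called at all. Over all genes the calls ran from 2 to 28 at GV (9 in the fit reported), from 0 to 96 at MII (0; 4 by DESeq2, 96 with no filter) and from 0 to 18 for the interaction (1; 3 by DESeq2, 18 with no filter). At GV there were 28 with no filter, 3 with all 12 libraries in 1 fit, 4 without control GV replicate 2 and 2 without cKO GV replicate 2. Direction was less stable: the log2 fold change of Serpine2 at GV (-0.07) was 0.29 with ERCC library sizes, where the all-gene median was 0.46, and -0.29 to 0.084 with 1 library left out, positive without control GV replicate 3 (0.02) or cKO GV replicate 1 (0.084). At MII, leaving out 1 library gave -1.16 to 0.80 for Tnfaip6, -1.67 to 1.21 for Ptx3, -0.14 to 1.01 for Spp1 and -0.30 to 1.04 for Ier3, with the lowest value of each without cKO MII replicate 1. Over all alternatives the adjusted p of Ptgs2 at MII ran from 0.0789 (no filter on low counts) to 0.9999 and that of Vcan from 0.291 to 0.9999. With ERCC library sizes the change of Serpine2 between stages was -0.063 in control and -0.73 in cKO.

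The median r of the members with the marker sum was 0.657 by Spearman and 0.499 to 0.911 with 1 library left out, and that of the 28 pairs 0.352 to 0.820. For Serpine2 r with the marker sum was -0.158 (without cKO MII replicate 3) to 0.787 with 1 library left out. Deviations of same-numbered libraries from their group means correlated at -0.245, 0.0216 and 0.236 at GV and -0.204, -0.0902 and 0.0142 at MII. With 3 libraries per group, these values cannot decide whether replicate numbers pair the libraries. With the replicate number as a block, 0 members were called, the median r was 0.715 with the marker sum and 0.656 over pairs, and Tnfaip6 at MII stood at -0.31, Ptx3 at -0.068 and the r of Serpine2 at -0.541. The causes were not tested. Depth limits Has2 to 1 to 5 counts at MII, and most members to 0 to 6 counts at GV, where only Serpine2 could be tested.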
